A study of Mus musculus with 5 samples.

Results

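The 37 enzymes described here carry glucose to lactate (17 glycolysis members) and pyruvate through the citric acid cycle (20 members, including the pyruvate dehydrogenase complex, pyruvate carboxylase and the aspartate aminotransferases). They were chosen by gene symbol as a pathway list, with earlier results of these data known. All 37 of them are among the 32531 gene rows of the count tables. RNA was pulled down with tagged ribosomes from 3 dentate gyrus libraries and 2 cerebral cortex libraries of adult mice given no treatment, in which the Rbp4-Cre driver line KL100 was crossed to the Rosa26-LSL-EGFP/Rpl10a reporter. All 5 libraries therefore share the same Cre driver and the same Cre-dependent EGFP-tagged ribosomal protein, and they differ by dissected tissue. In translating ribosome affinity purification (TRAP), an antibody against EGFP pulls tagged polysomes out of a homogenate, so that RNA of Cre-expressing cells is enriched. KL100 is known for Cre in layer 5 pyramidal neurons of cortex. Which cells carry the tag is set by that transgene, and no input or untagged fraction was analysed here, so background from other cells was not measured. The labels do not say whether libraries came from separate animals or from pools, so the p-values reflect only how far these libraries differ from each other, which may be technical variation.

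Glycolysis splits glucose in the cytosol into pyruvate with a small gain of ATP, and lactate dehydrogenase converts pyruvate and lactate into each other. Pyruvate that enters mitochondria is turned into acetyl-CoA by the pyruvate dehydrogenase complex and burned in the citric acid cycle, whose reduced cofactors feed the respiratory chain. Because NADH made in the cytosol cannot cross the inner mitochondrial membrane, shuttles carry its electrons in, of which the malate-aspartate shuttle and the glycerol phosphate shuttle are the main ones. Neurons rely heavily on oxidative metabolism, while astrocytes are known for a glycolytic profile.

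Gene counts summed to 36837908, 22600963 and 25670171 in dentate gyrus replicates 1, 2 and 3, and to 34887421 and 23967356 in cortex replicates 1 and 2. Levels are given as counts per 1e6 scaled by library (CPM), listed in replicate order, and 3 counts in a library correspond to 0.0814 to 0.133 CPM. The tissue labels were compared with markers. These lists were chosen with earlier results of these data known, so the comparison is not an independent check. Each of 10 markers of granule cells was higher in dentate gyrus, with summed levels of 5965, 5573 and 5909 CPM against 583 and 620 CPM in cortex. Among all genes tested, 10.5% were higher in dentate gyrus and 10.8% were lower. Of 8 layer 5 markers, 5 were lower in dentate gyrus, with summed levels of 267, 450 and 306 CPM against 1180 and 1098 CPM in cortex. Rbp4, Bcl6 and Crym were not called, and the means of Bcl6 and Crym were higher in dentate gyrus. Markers of other cells the pulldown could hold were also summed. Of 8 interneuron markers, 5 were lower and 1 was higher in dentate gyrus, with sums of 222, 186 and 207 CPM against 906 and 897 CPM in cortex. Most of the cortex sum was Sst, at 113, 80.8 and 72.4 CPM in dentate gyrus and 699 and 641 CPM in cortex. Oligodendrocyte markers summed to 161 to 222 CPM in dentate gyrus and 221 and 295 CPM in cortex, and oligodendrocyte precursor, microglia and vascular markers each stayed at or under 40.0 CPM in every library. What part RNA of these cells had in the enzyme differences was not tested. A library of each tissue held genes unlike its group. Cortex replicate 1 held 519 CPM of 6 cerebellar markers, against 11.6 CPM in cortex replicate 2, and dentate gyrus replicate 2 held 215 CPM of Dcn, Dlk1 and Gpr101, against 1.88 and 25.2 CPM in the other dentate gyrus libraries. Calls of members that were lost when either of these libraries alone was left out are given with those values. The fit without both entered the ranges and counts over the alternatives. Of 28 called markers of the cell types above and of astrocytes, 10 also lost their call when cortex replicate 1, dentate gyrus replicate 2 or both were left out. Read classes separated by tissue as well: 25.03% to 25.44% of reads were not unique in dentate gyrus and 29.95% and 31.76% in cortex. No feature was found for 13.26% to 14.83% in dentate gyrus and for 10.59% and 11.0% in cortex. The ribosomal precursor Rn45s took 0.891% to 1.006% of gene counts in dentate gyrus and 1.784% and 2.371% in cortex. Their part in the enzyme differences was not tested, beyond a fit without Rn45s that kept every member's call.

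Most glycolytic transcripts were lower in dentate gyrus, and fewer of the citric acid cycle transcripts were. By edgeR's quasi-likelihood test, 10 of 16 tested glycolysis members were lower in dentate gyrus and 0 were higher. At an unadjusted p under 0.05, 12 were lower and 1 was higher, and DESeq2 and limma voom each called 10 lower and 0 higher. Of 20 citric acid cycle members, 6 were lower, 1 was higher and 13 were not called. The 6 were Pdha1, Cs, Idh3a, Got2 and the cytosolic Mdh1 and Got1. Among them only Cs and Idh3a act within the cycle itself, and only Mdh1 and Got1 kept their call under all 16 alternatives. Over all 14136 genes tested, 10.8% were lower in dentate gyrus and 10.5% were higher. The median log2 change, dentate gyrus minus cortex, was -1.06 for the glycolysis members and -0.29 for the citric acid cycle members, beside 0.02 for all genes tested. Dentate gyrus and cortex values did not overlap, with dentate gyrus below, for 14 tested glycolysis members and 10 citric acid cycle members, where 25.0% of all tested genes behaved in this way. With dentate gyrus above, this held for 1 member of each list, beside 25.1% of all genes (50.1% in either direction). Summed over their members per kilobase of exon, glycolysis reached 304, 319 and 325 CPM per kilobase in dentate gyrus and 654 and 538 CPM per kilobase in cortex. The citric acid cycle members summed to 659, 712 and 659 CPM per kilobase in dentate gyrus and 1020 and 938 CPM per kilobase in cortex. Cytosolic Mdh1 and Got1 were the largest parts of that sum. Their means were 156 and 145 CPM per kilobase in dentate gyrus and 288 and 244 CPM per kilobase in cortex. In bulk pulldown RNA, fewer cells of a type and less RNA per cell cannot be told apart. Without cortex replicate 1 the counts lower in dentate gyrus were 7 glycolysis and 3 citric acid cycle members. Without cortex replicate 2 they were 10 and 2, and with neither cortex replicate 1 nor dentate gyrus replicate 2 they were 7 and 3.

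**Figure D1:**
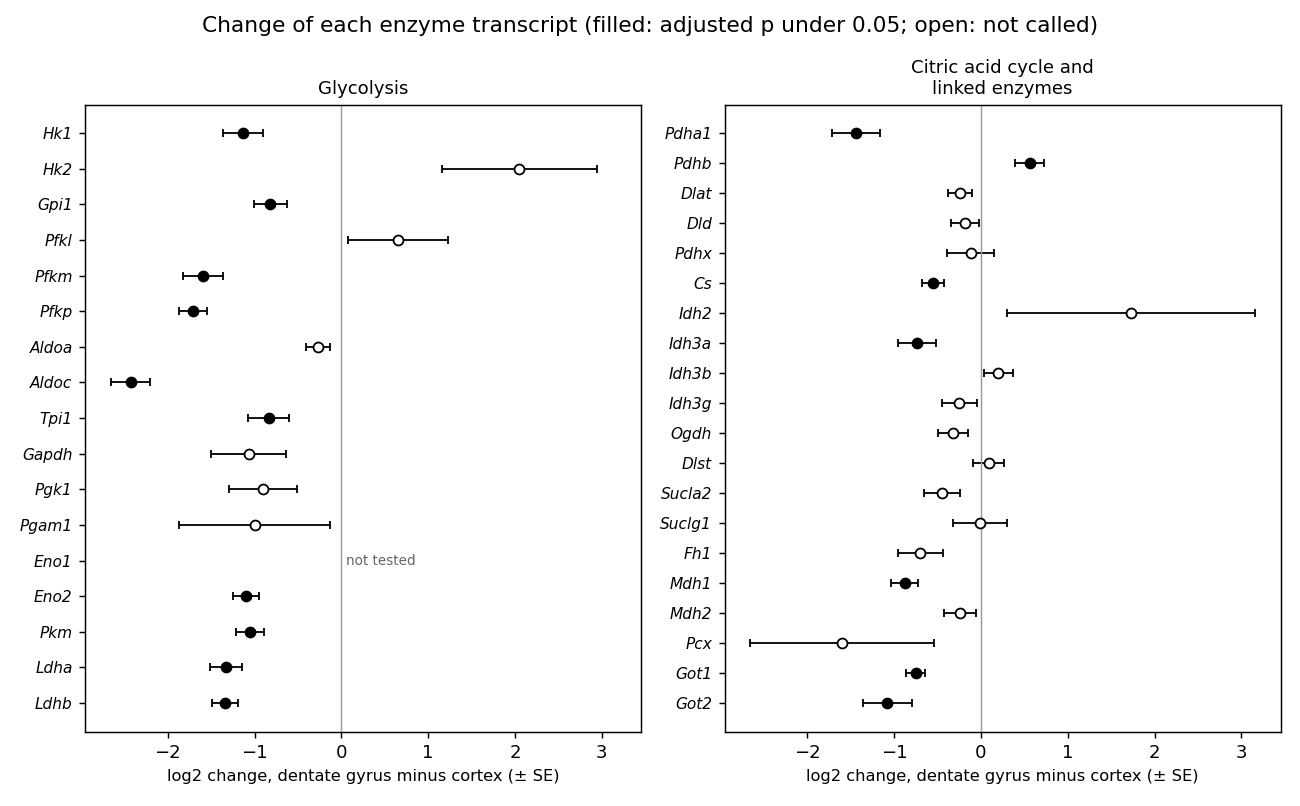
Log2 change of each member, dentate gyrus minus cortex, with its standard error (horizontal axis), in pathway order from top to bottom. Filled points passed an adjusted p of 0.05 in edgeR: 10 glycolysis members lie left of 0, and in the citric acid cycle panel 6 lie left of 0 and Pdhb lies right of it.

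Promoter sequences are shown for members that moved together and for a pair that did not. The sequences are the 250 bases before the most upstream RefSeq start on GRCm38.p6, written 5′ to 3′, for Aldoc, Pfkp, Ldha and Ldhb, which were lower in dentate gyrus, and for Pdha1 and Pdhb, which encode partner subunits of the same enzyme and moved in opposite directions. Capitals mark the core of the hypoxia response element, searched as ACGTG or GCGTG on both strands, so that CACGTG counts on each strand.
Aldoc, chr11:78322823-78323072, plus strand: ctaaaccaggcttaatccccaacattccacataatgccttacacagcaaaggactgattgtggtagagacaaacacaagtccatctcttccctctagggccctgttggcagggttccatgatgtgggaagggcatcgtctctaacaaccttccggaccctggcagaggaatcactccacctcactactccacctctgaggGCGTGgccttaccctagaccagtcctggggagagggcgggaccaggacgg
Pfkp, chr13:6648772-6649021, minus strand: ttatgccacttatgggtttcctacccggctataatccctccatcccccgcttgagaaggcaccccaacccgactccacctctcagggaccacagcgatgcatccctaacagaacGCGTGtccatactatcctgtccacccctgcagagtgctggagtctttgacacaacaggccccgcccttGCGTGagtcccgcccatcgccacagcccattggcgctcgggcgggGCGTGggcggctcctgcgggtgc
Ldha, chr7:46845554-46845803, plus strand: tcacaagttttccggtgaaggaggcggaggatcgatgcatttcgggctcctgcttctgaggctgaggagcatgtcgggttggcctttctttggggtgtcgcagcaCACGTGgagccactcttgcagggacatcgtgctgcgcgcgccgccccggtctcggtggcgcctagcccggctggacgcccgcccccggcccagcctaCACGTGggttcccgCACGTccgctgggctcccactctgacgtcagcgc
Ldhb, chr6:142507958-142508207, minus strand: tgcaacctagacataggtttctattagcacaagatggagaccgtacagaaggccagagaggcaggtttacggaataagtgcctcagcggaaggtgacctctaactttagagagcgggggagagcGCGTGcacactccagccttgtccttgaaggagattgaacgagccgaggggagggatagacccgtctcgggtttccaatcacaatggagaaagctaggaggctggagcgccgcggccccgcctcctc
Pdha1, chrX:160138431-160138680, minus strand: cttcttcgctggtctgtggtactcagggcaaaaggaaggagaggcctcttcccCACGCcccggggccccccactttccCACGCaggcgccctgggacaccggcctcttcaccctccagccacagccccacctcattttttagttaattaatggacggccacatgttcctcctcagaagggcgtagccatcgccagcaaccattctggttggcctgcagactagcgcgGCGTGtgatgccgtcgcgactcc
Pdhb, chr14:8172993-8173242, minus strand: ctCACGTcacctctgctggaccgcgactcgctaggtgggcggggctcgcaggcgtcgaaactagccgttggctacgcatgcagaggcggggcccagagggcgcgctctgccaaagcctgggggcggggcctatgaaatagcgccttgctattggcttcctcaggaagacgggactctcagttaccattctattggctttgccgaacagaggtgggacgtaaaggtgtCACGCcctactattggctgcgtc
The Ldha window held 5 matches, those of Pfkp and Pdha1 held 3 each, Pdhb had 2, and Aldoc and Ldhb had 1 each. RefSeq promoters were matched for 36 of the 37 members, all but Idh3a. The core was present in 9 of 15 members lower in dentate gyrus, in 14 of 20 members that were not called or not tested and in the promoter of Pdhb, beside 38.6% of 27025 promoters of the same length. The narrower core ACGTG was in 10 of the 36 members and in 16.5% of all promoters. A full estrogen-related receptor element, TCAAGGTCA on either strand, was in 0 of the 36 and in 0.366% of all promoters. A match describes letters in this window, and nothing about binding was measured.

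Entry of glucose into the pathway is set by hexokinase, which traps it as glucose-6-phosphate. Hk1, the main hexokinase of brain (chromosome 10, 62268855 to 62379908, minus strand), had levels of 32.8, 33.3 and 40.5 CPM in dentate gyrus, against 91.6 and 64.3 CPM in cortex. The tissues did not overlap, and the change was -1.13 on the log2 scale (SE 0.23, adjusted p 0.00715 by edgeR). The adjusted p of Hk1 was 0.0985 without cortex replicate 1, and it ran from 4.72e-05 to 0.168 over 16 alternatives. Hk2, the inducible isozyme, was at 3.53, 3.73 and 5.44 CPM in dentate gyrus, against 1.54 and 0.492 CPM in cortex. These values did not overlap either, but the change of 2.05 (SE 0.89) was not called, with an adjusted p of 0.14. Per kilobase, Hk1 made up 86.7%, 86.2% and 83.9% of the hexokinase pair in dentate gyrus and 97.7% and 98.9% in cortex. Gpi1, which isomerizes glucose-6-phosphate, was at 56.3, 49.0 and 56.2 CPM in dentate gyrus, against 103 and 87.2 CPM in cortex (log2 -0.82, SE 0.19, adjusted p 0.0127). All 3 dentate gyrus values were below both cortex values, and leaving out cortex replicate 1 gave an adjusted p of 0.118 within a range of 0.000195 to 0.195.

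Phosphofructokinase commits sugar to glycolysis, and both of its abundant isozymes were about 3-fold lower in dentate gyrus. Pfkp, the platelet-type isozyme (chromosome 13, 6579768 to 6648777, minus strand), had levels of 58.0, 54.6 and 53.2 CPM in dentate gyrus, against 175 and 187 CPM in cortex. Libraries of a tissue lay close together, and the fold of cortex over dentate gyrus was 3.27 (log2 -1.71, SE 0.16, adjusted p 6.76e-05). The muscle-type isozyme Pfkm (chromosome 15, 98092589 to 98132451, plus strand) was at 20.0, 20.7 and 23.7 CPM in dentate gyrus, against 68.6 and 61.5 CPM in cortex, a fold of 3.03 (log2 -1.60, SE 0.23, adjusted p 0.000911). Both stayed called under all 16 alternatives, with log2 changes of -1.76 to -1.68 for Pfkp and -1.71 to -1.49 for Pfkm. Pfkl, the liver-type isozyme, was low and varied within dentate gyrus, with 4.36, 13.7 and 12.8 CPM against 7.89 and 5.12 CPM in cortex, and was not called (log2 0.65, SE 0.58, adjusted p 0.492). Its share of the family per kilobase was 5.95%, 16.6% and 14.7% in dentate gyrus and 3.4% and 2.32% in cortex. Which isozyme led depended on the length used, since the annotated exons of Pfkp add up to 13401 bases and its coding sequence to 2629. Per kilobase of exon Pfkm led in every library, at 50.3% to 54.7% of the family in dentate gyrus and 55.6% to 59.1% in cortex. Per kilobase of coding sequence Pfkp led in every library, at 57.5% to 69.1% in dentate gyrus and 68.3% and 72.6% in cortex, and it also led by CPM.

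Aldolase C had the largest change among called members. Aldoc (chromosome 11, 78322968 to 78327781, plus strand), whose protein is the brain aldolase and is also known as zebrin of cerebellar Purkinje cells, was at 18.1, 20.5 and 21.3 CPM in dentate gyrus, against 127 and 88.8 CPM in cortex. The groups were far apart, with a fold of cortex over dentate gyrus of 5.4 (log2 -2.43, SE 0.23, adjusted p 7.26e-05). Cortex replicate 1, the library with cerebellar markers, had the higher of both cortex values. Without that library the log2 change was -2.15 (adjusted p 0.00145), and without it and dentate gyrus replicate 2 it was -2.17 (adjusted p 0.00475), in a range of 7.04e-22 to 0.00475 over the alternatives. Aldoc is also an astrocyte gene, and other astrocyte markers were mixed in direction. Of 10 other astrocyte markers, 4 (40.0%) were lower in dentate gyrus and 0 were higher in edgeR, beside 10.8% and 10.5% of all genes. A negative log2 change was seen for 5 of the 10, and the median was -0.14. Gfap, Aqp4, Slc1a3, Gja1 and Fgfr3 had positive changes and were not called. The 10 markers summed to 639, 665 and 798 CPM in dentate gyrus against 1094 and 1149 CPM in cortex. At an unadjusted p under 0.05 the counts were also 4 and 0, and the same counts came from DESeq2 and from limma voom. Most of that sum was the glutamate transporter gene Slc1a2, at 595 to 717 CPM in dentate gyrus and 983 and 1003 CPM in cortex. Among defining markers, Aldh1l1 was at 0 to 0.0827 CPM in dentate gyrus and 3.85 and 12.6 CPM in cortex, whereas Gfap was at 0.799 to 3.44 and 0.484 to 0.861 CPM and was not called. The part of astrocyte RNA in the Aldoc difference was not tested.

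Aldoa, the aldolase of most tissues, was the most abundant aldolase in both tissues and barely separated them. It was at 394, 398 and 393 CPM in dentate gyrus, against 547 and 404 CPM in cortex (log2 -0.27, SE 0.14, adjusted p 0.216). The call depended on a library, since the adjusted p was 0.0451 without cortex replicate 2, in a range of 0.0451 to 0.931, with a log2 change of -0.50. The share of Aldoc in the pair, per kilobase, was 3.95%, 4.39% and 4.6% in dentate gyrus and 17.1% and 16.4% in cortex, a difference of -12.4 percentage points. Shares were compared for 10 isozymes by an exact two-sided permutation test over the 5 libraries, which has 10 arrangements and cannot give a p below 0.1. Hk1, Pfkm and Aldoc reached that smallest exact p (0.333 after Benjamini-Hochberg adjustment), so this test cannot call a share, and no other test of shares was run. By coding length the exact p of the Pfkm share was 0.4.

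Steps of glycolysis after aldolase had lower levels in dentate gyrus, though not all were called and reads of several were hard to place. Tpi1, which interconverts the triose phosphates, was at 36.7, 51.4 and 34.1 CPM in dentate gyrus, against 79.9 and 65.9 CPM in cortex (log2 -0.84, SE 0.24, adjusted p 0.0347). This call was fragile, with adjusted p from 0.00492 to 0.212 and 7 of 16 alternatives without a call, among them the replicate block (0.128) and those that left out dentate gyrus replicate 1, dentate gyrus replicate 3, cortex replicate 1 or cortex replicate 2 (0.0676, 0.0893, 0.212 and 0.0671). Gapdh, Pgk1, Pgam1 and Eno1 encode enzymes that are abundant in brain but had low counts here. Reads that match several places were not counted, and 58.4%, 68.0%, 41.5% and 49.5% of their distinct 50-base transcript windows have an exact copy in annotated transcripts of other genes, many of them pseudogenes. Their levels are therefore uncertain. Gapdh was at 6.21, 6.39 and 5.36 CPM in dentate gyrus against 13.4 and 11.8 CPM in cortex (log2 -1.07, SE 0.43, adjusted p 0.112), and Pgk1 at 7.61, 7.86 and 10.1 CPM against 18.0 and 13.7 CPM (log2 -0.90, SE 0.39, adjusted p 0.142). Pgam1 was at 0.861 to 2.04 CPM in dentate gyrus and 3.08 and 3.28 CPM in cortex and was not called, and Eno1, at 0.0276 to 0.157 and 0.285 to 0.451 CPM, was too low to be tested.

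Eno2, the neuron-specific enolase (chromosome 6, 124760053 to 124769673, minus strand), carried almost no such copies (0.197% of windows). It was at 136, 139 and 167 CPM in dentate gyrus, against 334 and 297 CPM in cortex. Each cortex library exceeded every dentate gyrus library, with a log2 change of -1.10 (SE 0.15, adjusted p 0.000559). Pkm, pyruvate kinase (chromosome 9, 59656368 to 59679375, plus strand), was at 76.8, 80.8 and 89.5 CPM in dentate gyrus, against 183 and 158 CPM in cortex. Its change was close to that of Eno2 (log2 -1.05, SE 0.16, adjusted p 0.00139), and the count per gene does not separate its M1 and M2 splice forms.

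Both lactate dehydrogenase subunits were lower in dentate gyrus by a similar amount. Ldha (chromosome 7, 46841475 to 46855627, plus strand), the subunit that favours lactate formation, was at 68.7, 80.8 and 65.1 CPM in dentate gyrus, against 204 and 155 CPM in cortex (log2 -1.33, SE 0.18, adjusted p 0.000728). Ldhb (chromosome 6, 142490249 to 142507957, minus strand), the subunit that favours lactate use, had levels of 85.2, 89.4 and 101 CPM in dentate gyrus, against 242 and 222 CPM in cortex (log2 -1.34, SE 0.15, adjusted p 0.000211). Neither subunit overlapped between tissues, and both were called under all 16 alternatives. Windows with a copy in other transcripts made up 10.4% for Ldha, 21.0% for Ldhb, 18.4% for Pkm and 19.0% for Gpi1, so their levels may be understated in both tissues. The Ldhb share of the pair per kilobase was 72.3%, 70.0% and 76.6% in dentate gyrus and 71.4% and 75.0% in cortex. That share overlapped between the tissues and differed by -0.257 percentage points, with an exact permutation p of 1.0.

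**Figure D2:**
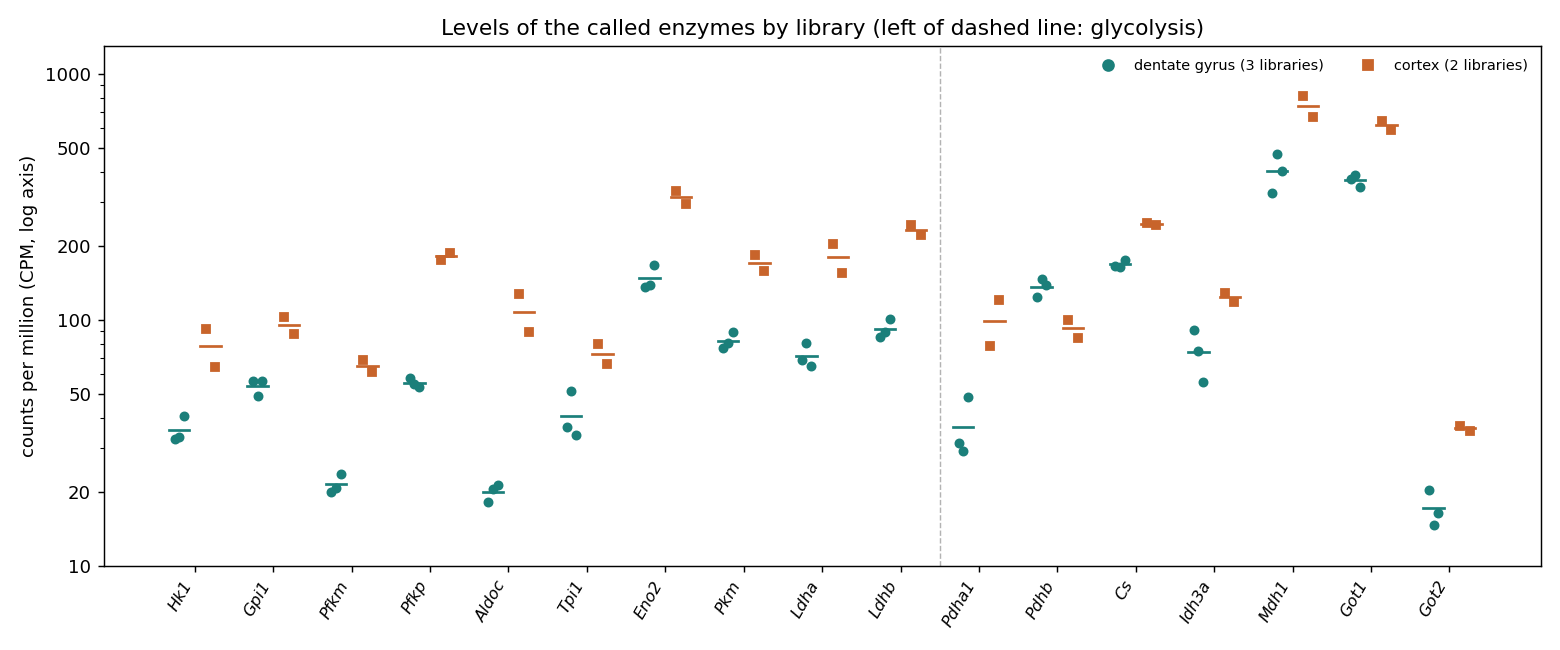
CPM on a log axis for the 17 called members in each library, dentate gyrus as circles on the left of each pair and cortex as squares on the right, with bars at the mean. No member shown has overlapping tissues, and Pdhb is the only one with dentate gyrus above cortex. The members shown were selected by their calls, which favours a lack of overlap, and 50.1% of all tested genes do not overlap either.

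Subunits of the pyruvate dehydrogenase complex, the gate between glycolysis and the cycle, did not move together. Pdha1, the regulated catalytic alpha subunit (chromosome X, 160122209 to 160138413, minus strand), had levels of 31.6, 29.4 and 48.7 CPM in dentate gyrus, against 78.0 and 120 CPM in cortex (log2 -1.44, SE 0.28, adjusted p 0.00511). Cortex replicate 2 gave the highest value, and without it the adjusted p was 0.06, the highest of a range from 3.68e-08. Exons of Pdha1 overlap those of Map3k15 on the other strand over 16.1% of their length. The strand setting of the counts is not given in the sources used here, so reads may be shared. Exons of Pkm, Gpi1, Pfkm and Got2 also overlap those of other genes, over 15.3%, 11.5%, 10.7% and 9.0% of their length. Pdhb, the beta subunit and partner of Pdha1 (chromosome 14, 8165996 to 8173025, minus strand), had levels of 124, 147 and 138 CPM in dentate gyrus, against 100 and 84.6 CPM in cortex. It was the one member higher in dentate gyrus, with a log2 change of 0.56 (SE 0.17, adjusted p 0.0422). That call sits close to the threshold. It was lost in 8 of 16 alternatives, including those without dentate gyrus replicate 2, dentate gyrus replicate 3, cortex replicate 1 or cortex replicate 2 (0.115, 0.109, 0.0697 and 0.273) and the fit with a replicate block (0.122), over a range of 0.0101 to 0.273. Of the windows of Pdhb, 30.3% have a copy in another annotated transcript. The other components were not called. Dlat, the acetyltransferase core, was at 256 ± 21.3 CPM in dentate gyrus (SD, n = 3) and 302 ± 40.4 CPM in cortex (SD, n = 2). Dld, the shared dihydrolipoamide dehydrogenase, was at 133 ± 6.69 and 150 ± 22.7 CPM, and Pdhx, the component that anchors Dld, at 40.9 ± 10.4 and 44.5 ± 4.88 CPM.

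Within the cycle itself, the condensing enzyme and a subunit of the NAD-dependent isocitrate dehydrogenase were lower in dentate gyrus. Cs, citrate synthase (chromosome 10, 128337734 to 128362479, plus strand), was at 166, 164 and 175 CPM in dentate gyrus, against 248 and 244 CPM in cortex. The spread within each tissue was small, and the log2 change was -0.55 (SE 0.13, adjusted p 0.0135). Without cortex replicate 1 and without cortex replicate 2 the adjusted p was 0.077 and 0.0524, in a range of 0.000145 to 0.143. Idh3a, the catalytic subunit (chromosome 9, 54586334 to 54604661, plus strand), was at 91.2, 74.9 and 55.9 CPM in dentate gyrus, against 129 and 118 CPM in cortex (log2 -0.74, SE 0.22, adjusted p 0.0373). It was lost without dentate gyrus replicate 2, dentate gyrus replicate 3, cortex replicate 1 or cortex replicate 2 (0.0601, 0.0847, 0.181 and 0.0939), and with a replicate block (0.107), in a range of 0.00274 to 0.249. Its partner subunits overlapped between tissues, with Idh3b at 134 ± 15.3 and 117 ± 6.26 CPM and Idh3g at 71.9 ± 9.96 and 85.8 ± 12.7 CPM in dentate gyrus and cortex. Idh2, the mitochondrial NADP-dependent enzyme, was near the counting floor in most libraries, with 4.05, 0.311 and 0.783 CPM in dentate gyrus and 0.256 and 0.779 CPM in cortex.

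From oxoglutarate to fumarate no member was called. Succinate dehydrogenase also acts in this stretch, but its genes were not on the member list. Its subunit gene Sdha, given below with the other isozymes, was called lower in dentate gyrus (log2 -1.08, adjusted p 0.00078 by edgeR). Sdhb, Sdhc and Sdhd were not called. Ogdh, the oxoglutarate dehydrogenase, was at 199, 142 and 195 CPM in dentate gyrus and 217 and 230 CPM in cortex (log2 -0.32, SE 0.17, adjusted p 0.22). Dlst, its succinyltransferase, was at 83.9 ± 8.23 and 79.0 ± 5.48 CPM, and Suclg1, the alpha subunit of succinyl-CoA ligase, at 28.6 ± 7.89 and 28.8 ± 5.04 CPM. Sucla2, the ATP-forming beta subunit, had a log2 change of -0.45 (SE 0.21, adjusted p 0.157) and Fh1, fumarase, one of -0.70 (SE 0.26, adjusted p 0.0818), each without overlap between tissues. DESeq2 gave Fh1 an adjusted p of 0.0347, the sole alternative that called it, in a range of 0.0347 to 0.348. Pcx, pyruvate carboxylase, which refills the cycle and is known as an astrocyte enzyme, was at 0.488 to 0.993 CPM in dentate gyrus and 1.88 and 2.34 CPM in cortex and was not called (log2 -1.60, SE 1.06, adjusted p 0.341).

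The cytosolic malate dehydrogenase and both aspartate aminotransferases, which run the malate-aspartate shuttle, were lower in dentate gyrus. Mdh1 (chromosome 11, 21556787 to 21572367, minus strand), the cytosolic enzyme and the member with the highest mean level per kilobase in each tissue, had levels of 329, 471 and 404 CPM in dentate gyrus, against 811 and 666 CPM in cortex (log2 -0.88, SE 0.16, adjusted p 0.00327). Cytosolic Got1 (chromosome 19, 43499752 to 43524605, minus strand) had levels of 374, 387 and 346 CPM in dentate gyrus, against 645 and 594 CPM in cortex (log2 -0.75, SE 0.11, adjusted p 0.00115). Neither overlapped between tissues, and both kept their call under all 16 alternatives. Mitochondrial Got2 (chromosome 8, 95864134 to 95888547, minus strand) had levels of 20.4, 14.6 and 16.3 CPM in dentate gyrus, against 37.1 and 35.4 CPM in cortex (log2 -1.08, SE 0.28, adjusted p 0.0223). Its level is uncertain, because 42.0% of its windows have a copy elsewhere, and its call was lost without dentate gyrus replicate 2, dentate gyrus replicate 3, cortex replicate 1 or cortex replicate 2 (0.0561, 0.0569, 0.113 and 0.0838) and with a replicate block (0.0779), in a range of 0.00168 to 0.202. Mdh2, the mitochondrial enzyme of the cycle, was not called at 166, 154 and 114 CPM in dentate gyrus and 177 and 165 CPM in cortex (log2 -0.24, SE 0.18, adjusted p 0.402). Per kilobase, Mdh1 made up 73.3%, 80.9% and 83.1% of the malate dehydrogenase pair in dentate gyrus and 86.4% and 84.9% in cortex, with an exact permutation p of 0.2.

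**Figure D3:**
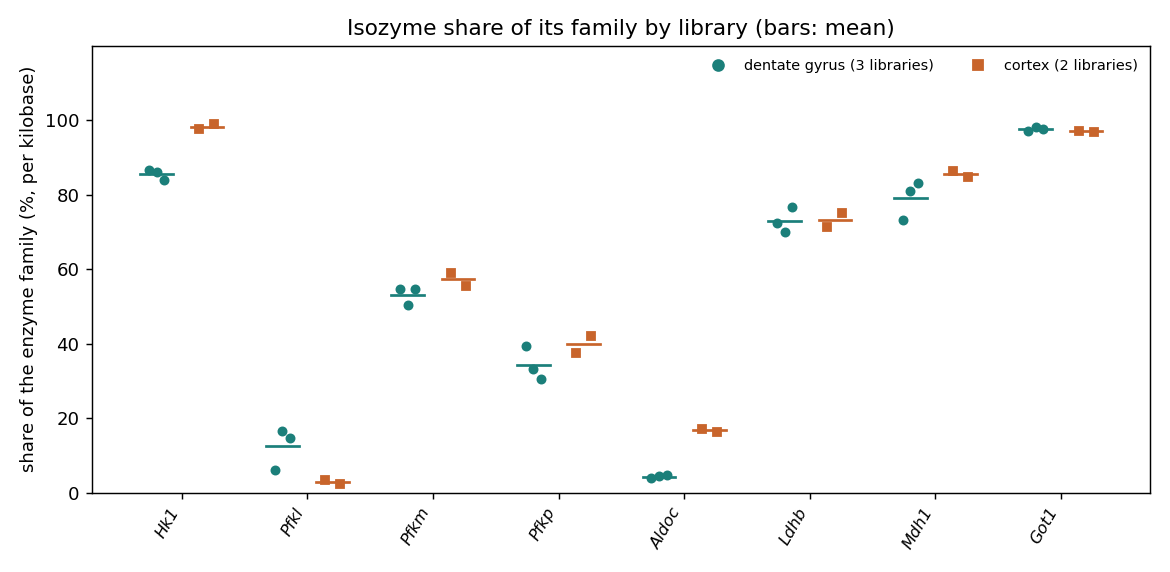
Share of an enzyme family held by the named isozyme (vertical axis, percent of CPM per kilobase), dentate gyrus as circles on the left and cortex as squares on the right of each pair, with bars at the mean. Hk1, Pfkm, Aldoc and Mdh1 shares lie below cortex in all 3 dentate gyrus libraries, and Pfkl and Got1 shares lie above. Pfkp and Ldhb shares overlap, as do those of Pfkm when coding length is used.

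Level per kilobase of exon orders the members within a tissue. In dentate gyrus the highest means were those of Mdh1, Got1 and Aldoa, at 156, 145 and 136 CPM per kilobase, followed by Ldhb at 58.5 and Dlat at 52.4. The cortex order began with Mdh1 and Got1 at 288 and 244 CPM per kilobase, then Aldoa at 163 and Ldhb at 148. Mdh1 and Got1 overlap in dentate gyrus within their SDs of 27.6 and 8.1 CPM per kilobase. Per kilobase of coding sequence, a choice added after seeing the data, Mdh1 again led, at 401 in dentate gyrus and 738 in cortex, while Aldoa at 315 came before Got1 at 297 in dentate gyrus. Members placed low in this order include those whose reads are shared with copies, so a low rank of Gapdh or Pgk1 is not a measure of its transcript level.

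Genes around the pathway showed movement in both directions. Of 93 tested genes in 5 lists of transporters, regulators, other isozymes, side routes and energy sensors, 16 were lower and 8 were higher in dentate gyrus, or 17.2% and 8.60%, beside 10.8% and 10.5% of all genes. For fuel transport, 2 of 11 tested genes were lower and 2 were higher, 18.2% each. Emb, an ancillary subunit of monocarboxylate transporters, was at 17.8, 24.6 and 9.2 CPM in dentate gyrus and 53.4 and 50.3 CPM in cortex (log2 -1.59, adjusted p 0.0131), and without cortex replicate 1 the adjusted p was 0.0675, in a range of 4.25e-06 to 0.0675. Bsg, basigin, the other ancillary subunit, had a log2 change of -0.67 (adjusted p 0.0253), which was lost without dentate gyrus replicate 3, cortex replicate 1 or cortex replicate 2 (0.0709, 0.138 and 0.0873) and with a replicate block (0.107, in a range of 0.00122 to 0.197). Mpc2, a subunit of the mitochondrial pyruvate carrier, was higher in dentate gyrus (log2 0.72, adjusted p 0.035), as was Slc2a13, the proton myo-inositol cotransporter that was listed with the glucose transporter family (0.50, adjusted p 0.0341). Both of these lost their call without dentate gyrus replicate 2, dentate gyrus replicate 3, cortex replicate 1 or cortex replicate 2, with adjusted p of 0.1, 0.0839, 0.0637 and 0.244 for Mpc2 and 0.0909, 0.112, 0.154 and 0.129 for Slc2a13. With a replicate block it was 0.099 for Mpc2 and 0.109 for Slc2a13, and over all alternatives it ran from 0.0056 to 0.244 for Mpc2 and from 0.00816 to 0.266 for Slc2a13. The glucose transporter genes Slc2a1, of endothelium and glia, and Slc2a3, of neurons, were not called, at 17.1 ± 1.18 and 16.4 ± 6.1 CPM and at 52.4 ± 3.39 and 43.5 ± 18.3 CPM in dentate gyrus and cortex.

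Among 13 tested regulators of glycolysis and pyruvate dehydrogenase, 2 (15.4%, beside 10.8% of all genes) were lower and 0 were higher in edgeR, and 0 were higher at an unadjusted p under 0.05, in DESeq2 and in limma voom. Pdp1, the phosphatase that activates pyruvate dehydrogenase, was at 84.1, 93.8 and 75.9 CPM in dentate gyrus and 174 and 172 CPM in cortex (log2 -1.03, SE 0.16, adjusted p 0.00149). Pfkfb3, which makes the phosphofructokinase activator fructose-2,6-bisphosphate, was at 8.27, 12.6 and 27.2 CPM in dentate gyrus and 41.2 and 48.5 CPM in cortex (log2 -1.49, SE 0.44, adjusted p 0.0383). Its call was lost without dentate gyrus replicate 1, dentate gyrus replicate 2, cortex replicate 1 or cortex replicate 2 (0.0567, 0.0803, 0.0987 and 0.158, in a range of 7.16e-05 to 0.195). Pdk2, the most abundant of the opposing kinases by CPM, was at 169 ± 32.8 and 171 ± 37.8 CPM and was not called. Of 15 tested other isozymes and cycle enzymes, Sdha, the flavoprotein of succinate dehydrogenase, was the one called (6.67% of the list), at 147, 171 and 133 CPM in dentate gyrus and 295 and 342 CPM in cortex (log2 -1.08, SE 0.15, adjusted p 0.00078). In that list 0 were higher by edgeR, DESeq2 or limma voom, and 1 had an unadjusted p under 0.05.

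Both partners of the glycerol phosphate shuttle, Gpd1 and Gpd2, were higher in dentate gyrus. Gpd1, the cytosolic NADH-consuming enzyme, was at 129, 73.5 and 91.3 CPM in dentate gyrus, against 22.1 and 28.3 CPM in cortex (log2 1.96, SE 0.28, adjusted p 0.000891). Gpd2, its mitochondrial partner, was at 278, 276 and 315 CPM in dentate gyrus, against 184 and 179 CPM in cortex (log2 0.67, SE 0.13, adjusted p 0.00543). The Gpd2 call was lost in 1 of 16 alternatives, which left out cortex replicate 1 along with dentate gyrus replicate 2 (0.0526, in a range of 2.04e-05 to 0.0526), and that of Gpd1 in none. Gpd1l, a cytosolic paralog, was at 169, 88.9 and 132 CPM in dentate gyrus and 191 and 170 CPM in cortex and was not called (log2 -0.47, adjusted p 0.203). Without dentate gyrus replicate 1 and with no filter it was called lower (0.0415 and 0.0486, in a range of 0.0415 to 0.717). In this list of side routes, 7 of 32 tested genes (21.9%) were lower and 3 (9.38%) were higher, beside 10.8% and 10.5% of all genes. Me1, the cytosolic malic enzyme, was at 4.52, 4.13 and 1.92 CPM in dentate gyrus and 24.5 and 35.4 CPM in cortex (log2 -3.08, SE 0.46, adjusted p 0.00106). Pygb, the brain glycogen phosphorylase, was higher, with 55.5, 46.1 and 68.7 CPM in dentate gyrus and 21.7 and 24.8 CPM in cortex (log2 1.29, SE 0.26, adjusted p 0.00649), and without cortex replicate 1 its adjusted p was 0.0532, in a range of 1.98e-05 to 0.0532. Ugp2, which makes UDP-glucose for glycogen, was lower (log2 -1.29, SE 0.27, adjusted p 0.00778), with an adjusted p of 0.0658 without cortex replicate 2 and 0.056 with neither cortex replicate 1 nor dentate gyrus replicate 2, in a range of 5.18e-05 to 0.0658. Slc25a12, the aspartate-glutamate carrier of the malate-aspartate shuttle, named after its values were seen, was at 170, 155 and 126 CPM in dentate gyrus and 257 and 191 CPM in cortex (log2 -0.57, SE 0.18, adjusted p 0.0479). That call was lost without dentate gyrus replicate 2, dentate gyrus replicate 3 or cortex replicate 1 (0.0699, 0.13 and 0.363) and with a replicate block (0.134), in a range of 0.00602 to 0.41. The other carriers listed for this shuttle were not called. The oxoglutarate carrier Slc25a11 was at 51.2, 52.8 and 64.7 CPM in dentate gyrus and 55.0 and 40.7 CPM in cortex, with overlap (log2 0.23, SE 0.23, adjusted p 0.551). The glutamate carrier Slc25a22 was at 55.9, 32.7 and 47.7 CPM in dentate gyrus and 66.2 and 78.9 CPM in cortex (log2 -0.67, SE 0.26, adjusted p 0.0926, in a range of 0.035 to 0.336), and Slc25a13, at 0 CPM in dentate gyrus and 0.287 and 0.37 CPM in cortex, was too low to test. The 2 shuttles were not compared with each other by a test.

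Of 22 tested regulators of energy metabolism, 4 (18.2%) were lower and 3 (13.6%) were higher in dentate gyrus, not far from the 10.8% and 10.5% of all genes. The coactivator gene Ppargc1a, which drives mitochondrial genes, was at 236, 347 and 191 CPM in dentate gyrus and 492 and 437 CPM in cortex (log2 -0.85, SE 0.21, adjusted p 0.0189), with an adjusted p of 0.107 without cortex replicate 1, in a range of 2.04e-07 to 0.107. Its nuclear receptor partner Esrrg was at 72.3, 44.1 and 39.1 CPM in dentate gyrus and 186 and 163 CPM in cortex (log2 -1.75, SE 0.25, adjusted p 0.000979). Gabpa, an ETS factor that binds promoters of respiratory genes, was higher, with 93.5, 97.1 and 97.6 CPM in dentate gyrus and 35.2 and 41.9 CPM in cortex (log2 1.32, SE 0.19, adjusted p 0.00107). The catalytic subunits of AMP-activated kinase, the sensor of low ATP, moved in opposite directions. Prkaa1 was at 79.0, 73.2 and 68.5 CPM in dentate gyrus and 29.1 and 28.0 CPM in cortex (log2 1.36, SE 0.21, adjusted p 0.00145). Prkaa2 was at 56.5, 82.3 and 86.5 CPM in dentate gyrus and 202 and 189 CPM in cortex (log2 -1.38, SE 0.20, adjusted p 0.000961). Both AMP-activated kinase calls, and those of Esrrg and Gabpa, held under all 16 alternatives. Egln3, a prolyl hydroxylase that marks hypoxia-inducible factor for decay, was lower in dentate gyrus (log2 -2.78, SE 0.63, adjusted p 0.0118, or 0.0734 without cortex replicate 1, in a range of 2.13e-09 to 0.0734). Its relative Egln1 was higher (log2 0.49, SE 0.14, adjusted p 0.0322), but not called when any 1 of the 5 libraries was left out, with adjusted p of 0.0524 to 0.187, nor with a replicate block (0.101), in a range of 0.00489 to 0.223. Hif1a, the oxygen-regulated factor itself, was at 76.0 ± 6.75 and 71.7 ± 24.0 CPM and was not called.

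**Figure D4:**
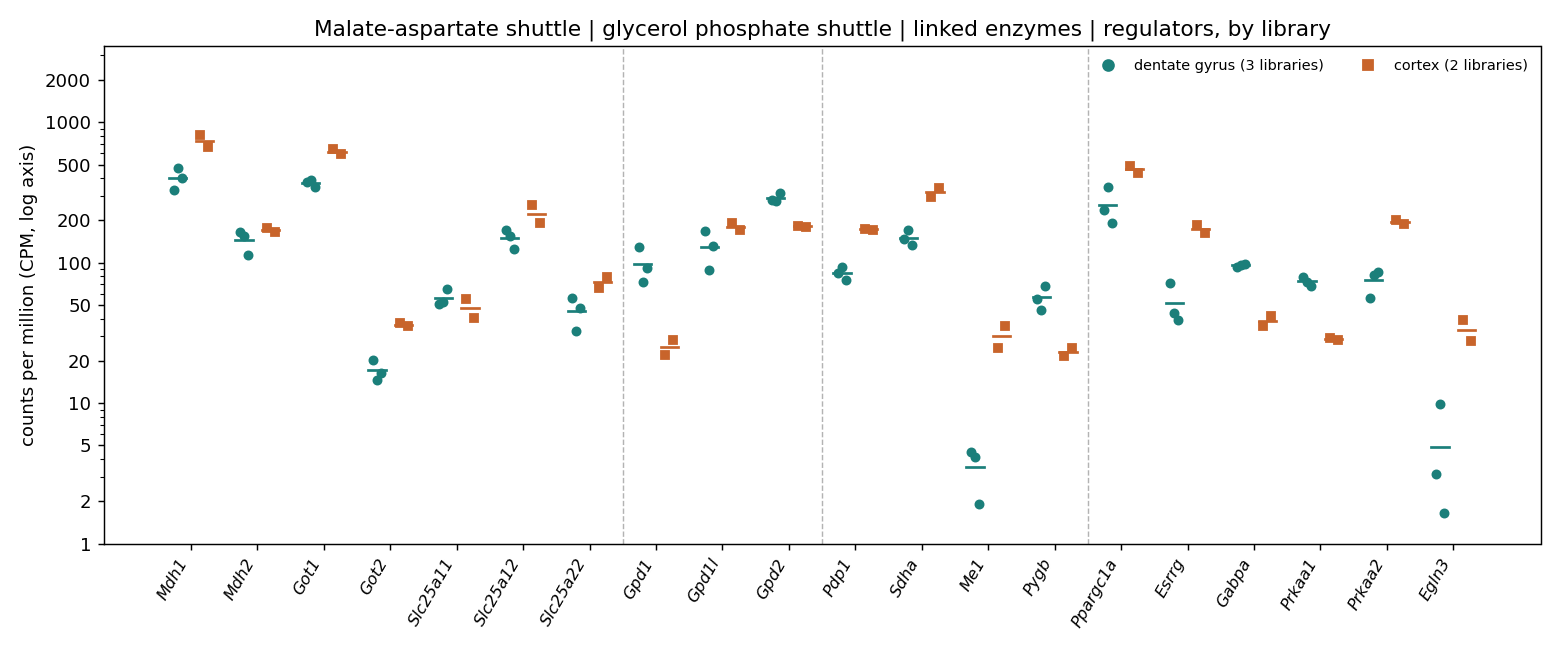
CPM on a log axis in each library, dentate gyrus as circles on the left and cortex as squares on the right, with bars at the mean. From left to right, dashed lines separate the malate-aspartate shuttle (Mdh1, Got1, Got2 and Slc25a12 called lower in dentate gyrus, Mdh2, Slc25a11 and Slc25a22 not called), the glycerol phosphate shuttle (Gpd1 and Gpd2 called higher, Gpd1l not called), linked enzymes and regulators.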

How the data were processed

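Ribosome-bound RNA was measured in 3 dentate gyrus and 2 cortex libraries, grouped by the labels. What the authors deposited for each library is a table of raw counts by gene symbol. STAR 2.0.0e, HTSeq and the build mm10 are named per the submitters' processing notes. Neither annotation, strand setting nor HTSeq version is given in the sources used here. Classes of reads assigned to no gene entered neither library sizes nor tests, and 1.81% to 1.87% of reads were ambiguous.

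Library scaling used the trimmed mean of M values, genes were filtered with filterByExpr, and tissue was tested by edgeR 4.0.16 (quasi-likelihood F test, R 4.3.3) over 14136 genes as dentate gyrus minus cortex. A call needed an adjusted p (Benjamini-Hochberg, over all of these) under 0.05, and unadjusted values are named as such. The SE is the log2 change over the square root of F. The procedure was also run on simulated counts with the same dispersion for every gene, a simpler setting than these data. That run is no check of the calls given here. Alternatives used limma 3.58.1, DESeq2 1.42.0, other scalings and filters, a replicate block and left-out libraries. Exon lengths, positions and transcript windows are from GENCODE M21 (GRCm38, as mm10), and promoters from RefSeq on GRCm38.p6. Tigar was matched by its older symbol. No genome sequence was used, so copies were sought in annotated transcripts, in windows of 50 bases. CPM use the scaled library sizes, ± is the SD, and no molecular identifiers were used here, so floors cover counting error only.

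The members and lists were chosen with earlier results of these data known. Values per library are given for called members with an absolute log2 change of at least 0.5 and for their isozymes. Around the pathway, up to 6 called genes per list and those called against most of their list were named. Of these, Bsg, Mpc2, Slc2a13, Ugp2, Egln3 and Egln1 are given by log2 change without values per library. Slc2a1, Slc2a3, Pdk2, Gpd1l, the Slc25a carriers and Hif1a were named outside this rule, and 1 gene that the rule names is not reported here.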

Additional observations from a re-analysis of the deposited data

How the results depend on the processing

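Results were recomputed under 16 alternatives. Of 17 called members, 9 kept their call in each of them (Pfkm, Pfkp, Aldoc, Eno2, Pkm, Ldha, Ldhb, Mdh1 and Got1). Of 575 comparisons of a tested member with its alternative, 537 kept direction and side of the threshold or were uncalled in both, 36 lost the call, 2 gained one and 0 called values reversed. Leaving out a library gave 1886 to 2775 called genes in place of 3009, 7 to 10 glycolysis and 2 to 6 citric acid cycle members lower, 0 to 1 citric acid cycle member higher, and 7 to 16 and 4 to 8 other pathway genes lower and higher. Leaving out cortex replicate 1 along with dentate gyrus replicate 2, these were 1578, 7, 3, 0, 9 and 4. The 1 citric acid cycle member higher, Pdhb, became 0 with upper quartile scaling, with a change above 1.2-fold and with the replicate block. Other pathway genes higher became 5 with the replicate block and 5 with a change above 1.2-fold.

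Same-numbered libraries did not deviate together (correlations -0.004 and -0.016). With 2 cortex libraries, the deviations from the cortex mean mirror each other, so this cannot show whether same-numbered libraries are paired. With the replicate block, 2237 genes, 9 glycolysis and 4 citric acid cycle members lower were called. Fits without a cortex library assume that the lone one varies like dentate gyrus. The Ldhb share reversed its difference of -0.257 points to 0.061, 1.23 and 1.54 without dentate gyrus replicate 1, dentate gyrus replicate 2 and cortex replicate 2, in a range of -2.06 to 1.54 when a library was left out. The causes were not tested. Reads shared with copies limit Gapdh, Pgk1, Pgam1, Eno1 and Got2, and Idh2 and Pcx had few counts.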
